A study of Mus musculus with 6 samples.

Results

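The CELF and MBNL genes encode 2 families of sequence-specific RNA-binding proteins. The 9 members were taken by symbol from the 36008 genes of the gene table: Celf1, Celf2, Celf3, Celf4, Celf5, Celf6, Mbnl1, Mbnl2 and Mbnl3. All 9 were found and all 9 passed the filter on low counts. Polyadenylated RNA of the hippocampus was sequenced from female mice of strain B6J that were 2 weeks old, with 3 WT control mice and 3 Prmt9 KO mice. The mice were described as littermates matched for age. In the knockout, a floxed exon of Prmt9 was deleted in the whole body by Cre recombinase driven from a CMV promoter. PRMT9 is an arginine methyltransferase whose substrate SF3B2 belongs to the splicing machinery. The comparison asked whether genes and splicing differed when it was lost.

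CELF proteins carry 3 RNA recognition motifs and bind GU-rich RNA, and MBNL (muscleblind-like) proteins carry CCCH zinc fingers and bind short motifs built around a GC pair. Both families regulate alternative exons in the nucleus and the stability or localization of mRNAs in the cytoplasm, and on a number of exons they act in opposite directions. Celf1 and Celf2 are expressed broadly, whereas Celf3 to Celf6 are enriched in the nervous system. In myotonic dystrophy the MBNL proteins are trapped on expanded repeat RNA, and fetal patterns of exon use reappear. MBNL2 is the main family member behind the splicing defects of the brain in that disease.

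The alternative exons that Mbnl1 and Mbnl2 share are printed first, because much of the isoform data below concerns them. Each gene holds cassette exons of 54, 36 and 95 bases, all of them coding. The exon of 54 bases is known to favour nuclear localization of the protein, and its own inclusion is repressed by MBNL proteins. Inclusion of the exon of 95 bases moves the reading frame of what follows, since 95 is no multiple of 3. The sequences were read 5′ to 3′ from the annotated transcripts of GRCm38, and capitals mark the bases that differ between the paralogs. All are on the + strand.
Mbnl1 54-base exon, chr3:60614683-60614736: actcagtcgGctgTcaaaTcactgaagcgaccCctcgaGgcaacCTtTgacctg
Mbnl2 54-base exon, chr14:120395712-120395765: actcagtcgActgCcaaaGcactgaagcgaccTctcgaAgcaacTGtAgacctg
Mbnl1 36-base exon, chr3:60621423-60621458: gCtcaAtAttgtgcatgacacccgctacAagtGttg
Mbnl2 36-base exon, chr14:120403336-120403371: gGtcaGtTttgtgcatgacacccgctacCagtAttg
Mbnl1 95-base exon, chr3:60622146-60622240: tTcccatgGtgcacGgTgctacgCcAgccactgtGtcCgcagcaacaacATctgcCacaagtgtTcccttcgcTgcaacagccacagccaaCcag
Mbnl2 95-base exon, chr14:120404638-120404732: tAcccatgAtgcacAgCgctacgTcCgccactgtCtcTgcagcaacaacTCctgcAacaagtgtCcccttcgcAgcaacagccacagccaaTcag

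The paralogous exons were identical at 46 of 54 bases, 31 of 36 bases and 81 of 95 bases, which is 85.2%, 86.1% and 85.3%. The MBNL-type motif, searched as the letters TGCT with C also allowed in place of either T, on the transcribed strand and with overlapping matches counted, occurred 4 times in the 95-base exon of Mbnl1 and 2 times in that of Mbnl2. Among 1123 annotated internal exons of 95 bases, 6.5% held at least 4 matches and 37.8% at least 2. The 36-base exon held 1 match in each gene (31.2% of 512 exons of that length held any). The 54-base exon held 1 match in Mbnl2 and 0 in Mbnl1 (43.0% of 1310 exons held any). These matches describe the letters of the exon alone.

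Of the CELF genes, Celf2 carries a coding cassette exon of 144 bases and short alternative pieces at splice sites. They are shown because the usage of Celf2 transcripts gave the lowest adjusted p of any member in the comparison of mice numbered 2 and 3. Capitals mark the same motif. The Celf2 lines are on the - strand of chromosome 2 and the Celf1 line on its + strand.
Celf2 144-base cassette exon, chr2:6549832-6549975: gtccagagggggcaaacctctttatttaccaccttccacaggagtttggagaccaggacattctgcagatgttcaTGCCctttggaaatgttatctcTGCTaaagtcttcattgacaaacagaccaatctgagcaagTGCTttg
Celf2 18-base piece at an alternative 3′ splice site, chr2:6553965-6553982: tTGCTcaaaTGCTctcag
Celf2 12-base piece at an alternative 5′ splice site, chr2:6560659-6560670: gtaccataaaca
Celf1 12-base piece at an alternative 3′ splice site, chr2:91006620-91006631: ctttatttgcag

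The Celf2 exon of 144 bases held 3 matches, and 38.8% of 1307 annotated internal exons of that length held at least 3. The 12-base Celf2 piece opens with gt and the Celf1 piece ends with ag, the letters of the splice sites themselves.

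The targeted gene was read first as the check of the labels. Prmt9 (ENSMUSG00000037134, chr8:77549397-77581338) was at 11.8, 15.2 and 15.0 TPM in WT mice 1, 2 and 3 and at 3.93, 4.61 and 4.67 TPM in Prmt9 KO mice 1, 2 and 3. TPM is a level scaled by transcript length and by library size. The groups did not overlap, and the fitted log2 fold change was -1.71 ± 0.10 (SE, edgeR quasi-likelihood test, adjusted p = 0.033). All 6 mice went with their labels.

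The mice numbered 1 stood apart from the other 4, in the WT group more than in the knockout. Estimated counts per mouse summed to between 194098391 and 286771677. The first principal component of log2 CPM, counts scaled by library size, held 68.1% of the variance, and WT mouse 1 lay at -124 on it, Prmt9 KO mouse 1 at -24.8 and the others between 33.8 and 39.8. In WT mouse 1, 37.4% of transcripts were at 0, against 22.8% to 24.8% in the others. Relative to WT mice 2 and 3, genes in the longest tertile by transcript length had a median log2 TPM difference of -0.67 in WT mouse 1, and those in the shortest tertile 0.16. In Prmt9 KO mouse 1 the same medians against knockout mice 2 and 3 were -0.29 and 0.15. Summed over 6 oligodendrocyte markers, WT mouse 1 and Prmt9 KO mouse 1 had 2156 and 1127 TPM and the others 8226 to 12004. Over 7 neuron markers they had 2478 and 3106 TPM against 3146 to 3496, all 7 detected in every mouse, although Tubb3, a tubulin of young neurons, was higher at 704 and 886 TPM against 278 to 325. Over 5 choroid plexus markers the sums were 609 to 7265 TPM, highest in WT mouse 1. Over 7 markers of hippocampal excitatory neurons, WT mouse 1 and Prmt9 KO mouse 1 had 298 and 344 TPM and the others 441 to 472. Over 5 astrocyte markers they had 693 and 803 TPM against 879 to 931, and over 5 microglia markers 129 and 126 TPM against 165 to 179. Not every marker went with its sum. Aif1 of the microglia list was higher in both, at 16.6 and 16.3 TPM against 12.2 to 13.2. P2ry12 ranged from 44.9 TPM in WT mouse 1 to 32.8 TPM in Prmt9 KO mouse 1. Over 4 endothelial markers the mice numbered 1 were higher, at 142 and 126 TPM against 75.4 to 92.0. Of these markers Cldn5 was higher, at 107 and 89.2 TPM against 37.1 to 45.2. Flt1 was lower, at 7.19 and 7.89 TPM against 14.8 to 20.5, and Pecam1 differed little. Over 4 globin genes of erythrocytes the sums were 2548 to 6316 TPM in WT and 1033 to 3265 TPM in knockout mice, with 4 of 4 log2 fold changes negative and a median of -1.12. The part of these differences in the results below was not tested. The main tests are therefore given with all 6 mice and again with both mice numbered 1 left out, a choice made after the data were seen.

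Celf4, Celf3, Celf5 and Celf2 were the most abundant members in the WT hippocampus, and Mbnl3 was barely detected. Mean gene TPM in WT mice (n = 3) was 246 ± 85.0 (SD) for Celf4, 221 ± 28.8 for Celf3, 193 ± 66.9 for Celf5 and 148 ± 48.1 for Celf2. It was 90.7 ± 34.5 for Mbnl2, 29.3 ± 9.97 for Celf1, 27.1 ± 12.04 for Mbnl1, 21.8 ± 0.53 for Celf6 and 0.53 ± 0.18 for Mbnl3. In this order, the ranges of neighbours over WT mice overlapped for every pair except Mbnl2 above Celf1 and Celf6 above Mbnl3. Within single mice the order was firmer. Celf5 was above Celf2, Celf2 above Mbnl2, and Celf1 above Mbnl1 in 6 of 6 mice, Celf3 was above Celf5 in 5, and Celf4 above Celf3 and Mbnl1 above Celf6 in 4. Both exceptions to the last 2 orders were the mice numbered 1.

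**Figure D1:**
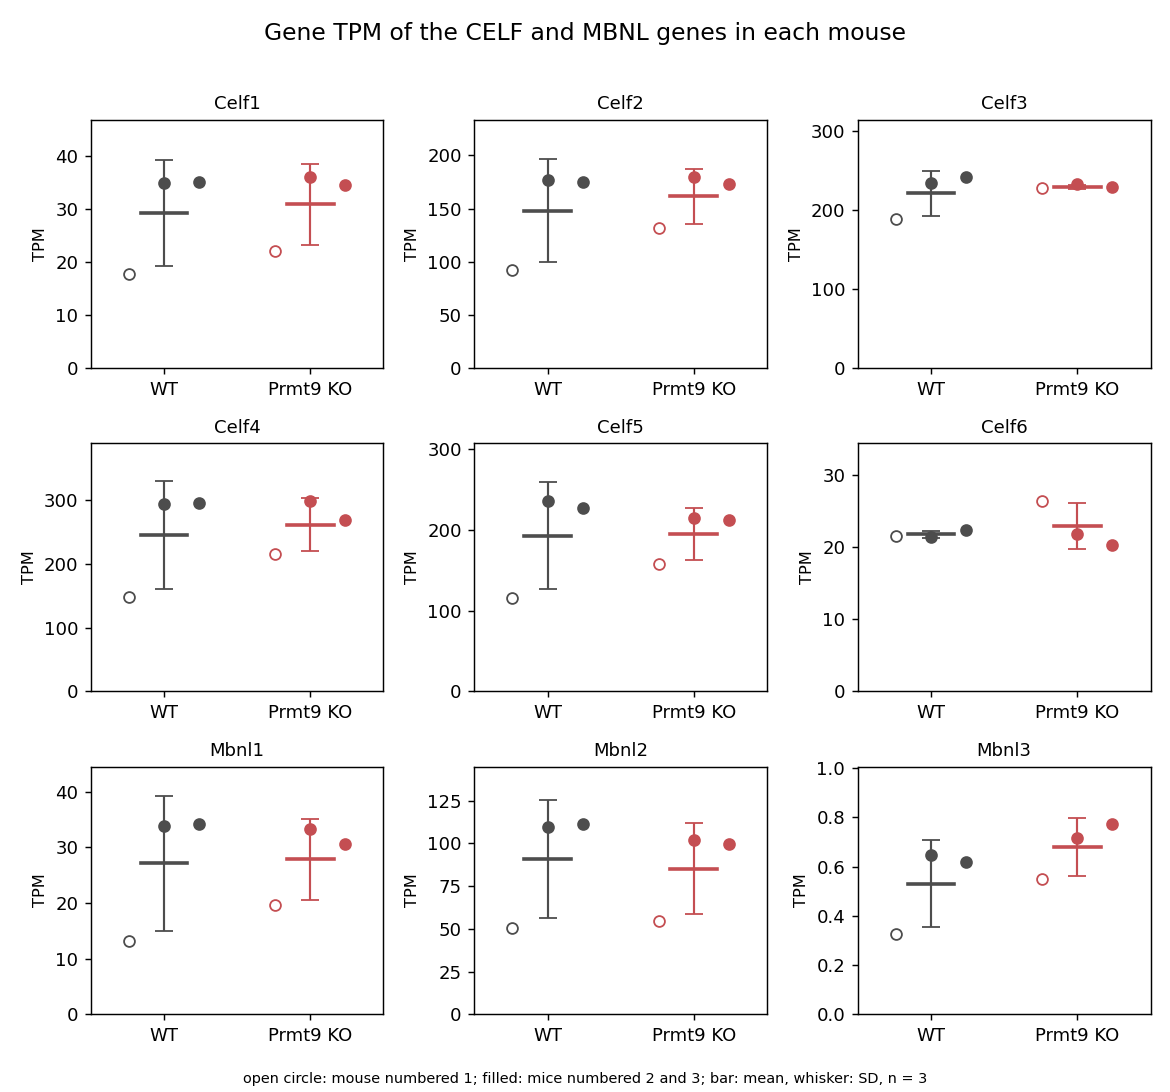
Gene TPM (vertical axes, from 0) of the 9 genes in each WT and Prmt9 KO mouse, with mean and SD of 3 mice. Open circles are the mice numbered 1, which are the lowest of their group in every panel but that of Celf6, by a small gap for Celf3 in the knockout.

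Celf4, a neuronal CELF protein that binds many synaptic mRNAs, was at 147, 294 and 295 TPM in WT mice 1, 2 and 3 and at 216, 299 and 270 TPM in Prmt9 KO mice 1, 2 and 3. The gene is at chr18:25477632-25754157. The low value in each genotype was mouse 1, and the groups overlapped. Celf3 (chr3:94478295-94492198), whose RNA is largely confined to neurons, was at 188, 234 and 241 TPM in WT and 227, 232 and 229 TPM in knockout mice. It was the most even of the abundant members, with only WT mouse 1 lower than the rest.

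Celf5 (ENSMUSG00000034818, chr10:81459227-81482709), another nervous-system member, was at 116, 236 and 227 TPM in WT mice and at 158, 215 and 212 TPM in knockout mice. The groups overlapped, because WT mouse 1 was below every knockout mouse and WT mice 2 and 3 were above. Celf2 (chr2:6539694-7509563), which acts in splicing and in mRNA translation, was at 92.6, 177 and 175 TPM in WT and 132, 179 and 173 TPM in knockout mice. Mice 2 and 3 of both genotypes were within 173 to 179 TPM.

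Celf1 (chr2:90940382-91019497), the member known for promoting decay of mRNAs with GU-rich elements, was at 17.8, 34.9 and 35.2 TPM in WT mice and at 22.0, 35.9 and 34.6 TPM in knockout mice. Celf6 (chr9:59577917-59607292) was at 21.6, 21.4 and 22.4 TPM in WT and 26.5, 21.8 and 20.3 TPM in knockout mice. It was the sole member of the 9 in which neither mouse numbered 1 was markedly below its group, and knockout mouse 1 was the highest of all.

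Mbnl2 (chr14:120275669-120431697), the main MBNL gene here with 77.1% ± 1.64 (SD, n = 3) of the family's TPM in WT mice, was at 50.8, 110 and 111 TPM in WT mice and at 54.5, 102 and 99.4 TPM in knockout mice. WT mouse 1 was at 45.9% and knockout mouse 1 at 54.2% of the mean of the other mice of its genotype. Mbnl1 (chr3:60472830-60629750), the paralog best known from muscle, was at 13.2, 33.9 and 34.2 TPM in WT and 19.6, 33.3 and 30.5 TPM in knockout mice. Mbnl3 (chrX:51117269-51206532), the member linked to proliferating cells, was at 0.33, 0.65 and 0.62 TPM in WT and 0.55, 0.72 and 0.77 TPM in knockout mice. WT mouse 1 was the lowest for each of these 3 genes. In whole tissue, fewer cells that express a gene and less RNA per cell cannot be told apart.

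None of the 9 genes passed the test of differential expression. The call required an adjusted p under 0.01 and a fold over 1.5, and 0 of 20335 genes met it (0% called). Prmt9, the deleted gene, also missed it, at an adjusted p of 0.033 (edgeR), against 1.4e-60 with DESeq2. A gene not called here can therefore still differ between genotypes. At an unadjusted p under 0.05, 251 genes (1.23%) passed and 0 of the 9 members did. DESeq2 called 2 genes and limma on log2(TPM + 1) called 0, none of them a member. Fitted log2 fold changes of the members, Prmt9 KO over WT, ran from -0.12 ± 0.24 (SE) for Mbnl2 to 0.27 ± 0.22 for Mbnl3, with a median of 0.0099, against -0.011 over all genes tested. Mbnl3 had the smallest unadjusted p of the 9, at 0.27 in edgeR, and all 9 adjusted p were 1 when rounded, with edgeR. For Celf5 the difference was 0.0015 ± 0.16 (SE) and for Mbnl1 0.0014 ± 0.22.

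The TPM values gave the same picture. In 0 of the 9 members did the WT and knockout values separate, whereas they did so in 907 of 15200 genes with a mean of at least 1 TPM (5.97%). The exact two-sided permutation test of mean TPM gave p values of 0.4 to 1 for the members, and 0.1 is the smallest that 3 mice against 3 allow. With mice numbered 2 and 3 alone, the SE of the fold changes fell to between 0.034 and 0.11, and the log2 fold changes ran from -0.091 for Mbnl2 to 0.24 for Mbnl3. There 1 of the 9 members, Mbnl2, had an unadjusted p under 0.05, where 3360 of 20498 genes (16.4%) did. Mbnl2 was lower in knockout mice by 0.091 ± 0.034 on the log2 scale, with both knockout mice below both WT mice (edgeR, unadjusted p = 0.037, adjusted p = 0.27). Between these 4 mice the TPM of 5 members did not overlap between genotypes, as in 51.2% of genes.

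**Figure D2:**
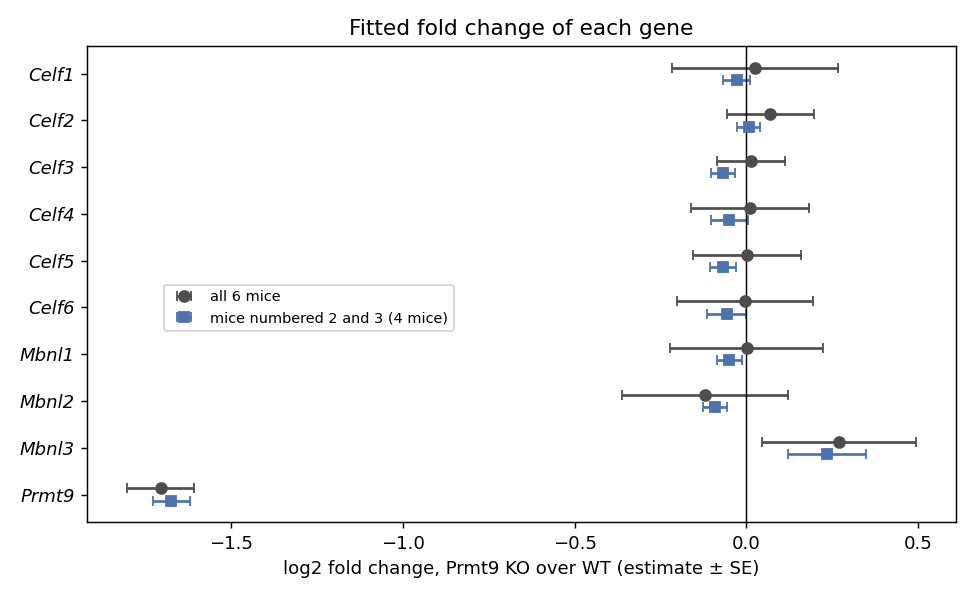
Fitted log2 fold change, Prmt9 KO over WT (horizontal axis), with its SE for each member and for Prmt9, from all 6 mice (circles) and from the 4 mice numbered 2 and 3 (squares). Members lie between -0.12 and 0.27 with all 6 mice, and Prmt9 lies at -1.71.

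Celf5 was followed by transcript. Of its 8 annotated transcripts, the protein-coding Celf5-201 and the retained-intron transcript Celf5-207 together made up most of the gene's TPM. Celf5-201 held 60.3%, 54.4% and 55.2% of Celf5 TPM in WT mice 1, 2 and 3 and 58.8%, 58.2% and 56.5% in Prmt9 KO mice. Celf5-207, which is annotated with a 605-base RNA of 5 exons, held 21.3%, 27.8% and 25.4% in WT and 23.9%, 25.9% and 25.8% in knockout mice. For both transcripts the knockout values lay inside the WT range (exact permutation test of the mean share, p = 0.7 and 0.8).

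The groups overlapped for the smaller Celf5 transcripts named here. Celf5-202, whose first exon lies downstream of that of Celf5-201, held 8.03%, 2.64% and 2.92% in WT and 7.29%, 3.06% and 3.40% in knockout mice. The mouse numbered 1 was the high one in each genotype. Celf5-203 held 4.19% to 5.70% over the 6 mice, Celf5-206 3.13% to 6.24% and Celf5-208 1.5% to 2.80%. Celf5-204 and Celf5-205 stayed at or below 1.25%. Taken by annotation class, the 3 retained-intron transcripts held 30.4% ± 4.94 (SD, n = 3) of Celf5 TPM in WT and 29.9% ± 2.33 in knockout mice.

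**Figure D3:**
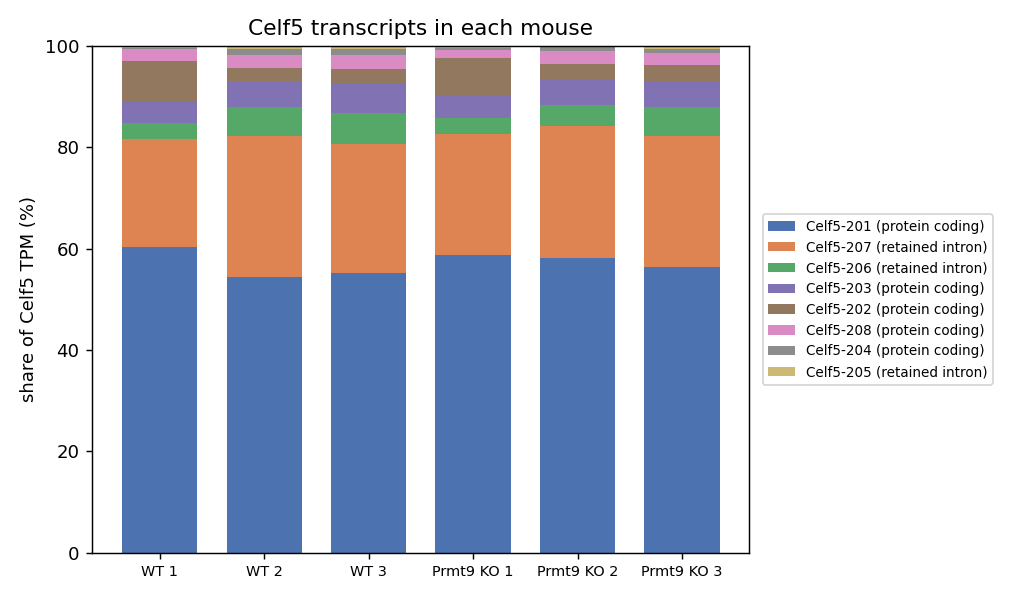
Share of Celf5 TPM (vertical axis, percent) of each of the 8 annotated transcripts, stacked, in the 6 mice. Celf5-201 fills 54.4% to 60.3% and Celf5-207 21.3% to 27.8% of the bars, and Celf5-202 is widest in both mice numbered 1.

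The study showed Celf5 among genes alternatively spliced upon Prmt9 knockout that it checked by RT-PCR. It marked a cryptic Celf5 splice site that the reference genome annotation lacks. The product of its Celf5 primer pair is shown to place it on the gene. The product lies on the - strand between positions 81464420 and 81462669 of chromosome 10, all of it coding, and capitals mark the primer sites.
Celf5 RT-PCR product: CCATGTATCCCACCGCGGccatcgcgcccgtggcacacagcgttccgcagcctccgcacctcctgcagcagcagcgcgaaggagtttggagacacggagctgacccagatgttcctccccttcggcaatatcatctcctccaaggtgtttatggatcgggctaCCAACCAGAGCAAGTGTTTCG
It is 184 bases long in each of the 4 transcripts that hold both sites, Celf5-201, Celf5-202, Celf5-203 and Celf5-204, and it spans 1 exon junction. These 4 transcripts summed to 84.5, 150 and 148 TPM in WT mice and 113, 144 and 140 TPM in knockout mice. That was 72.7%, 63.4% and 65.0% of Celf5 TPM in WT and 71.1%, 67.0% and 65.8% in knockout mice. No annotated Celf5 transcript joins or skips these exons otherwise, so a product of another size could not be followed in the transcript table. The use of a splice site outside the annotation could not be followed either, so the Celf5 values here do not bear on the study's event.

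The sole tested splicing event of Celf5 was an alternative 5′ splice site of 3 bases at chr10:81471306-81471308. PSI, percent spliced in, is given here as a fraction, the TPM of the transcripts that include a piece divided by that of those including or excluding it. The 3 bases were included at 0.944, 0.911 and 0.907 in WT and 0.933, 0.922 and 0.919 in knockout mice. Values in the knockout lay inside the WT range.

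The leading Mbnl2 transcripts had their outlying values in the mice numbered 1. Mbnl2-204, which skips the 54- and 36-base exons and holds the 95-base exon, was at 10.9%, 44.1% and 45.6% of Mbnl2 TPM in WT and at 30.5%, 43.6% and 43.4% in knockout mice. Mbnl2-202, which includes the 54- and 36-base exons, was at 46.6%, 28.5% and 27.6% in WT and 39.5%, 29.9% and 29.5% in knockout mice. In each genotype mouse 1 had less of Mbnl2-204 and more of Mbnl2-202 than the other mice. Mbnl2-210 was the one Mbnl2 transcript of at least a 5% share whose groups separated, at 7.74%, 5.96% and 5.91% in WT and 4.87%, 4.59% and 4.12% in knockout mice.

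By exon, inclusion of the 54-base exon of Mbnl2 was 0.733, 0.402 and 0.393 in WT and 0.573, 0.419 and 0.422 in knockout mice. Inclusion of its 36-base exon was 0.777, 0.412 and 0.395 in WT and 0.534, 0.416 and 0.409 in knockout mice. Its 95-base exon went the other way, at 0.383, 0.830 and 0.847 in WT and 0.779, 0.837 and 0.816 in knockout mice. The mice numbered 2 and 3 of both genotypes lay within 0.031 of each other for each of the 3 exons. No difference between genotypes passed (exact permutation p = 1, 0.9 and 0.9).

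Mbnl1 varied in the same exons. Its 54-base exon was included at 0.432, 0.498 and 0.494 in WT and 0.579, 0.504 and 0.484 in knockout mice. The mice numbered 1 gave the lowest value in WT and the highest in the knockout. The 36-base exon was at 0.592, 0.812 and 0.841 in WT and 0.696, 0.833 and 0.808 in knockout mice, lower in both mice numbered 1, opposite in direction to the 36-base exon of Mbnl2. The 95-base exon was at 0.956, 0.721 and 0.744 in WT and 0.886, 0.716 and 0.781 in knockout mice, higher in both mice numbered 1, again opposite to Mbnl2. This event sets Mbnl1-214 and Mbnl1-219, which skip the 36-base exon, against Mbnl1-218, while that of Mbnl2 sets 4 transcripts against Mbnl2-205. Mbnl1-215, which includes the 54-base exon, was at 2.38%, 17.5% and 17.8% of Mbnl1 TPM in WT and 19.6%, 18.6% and 18.0% in knockout mice. Its groups did not overlap, and WT mouse 1 was far below all others.

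**Figure D4:**
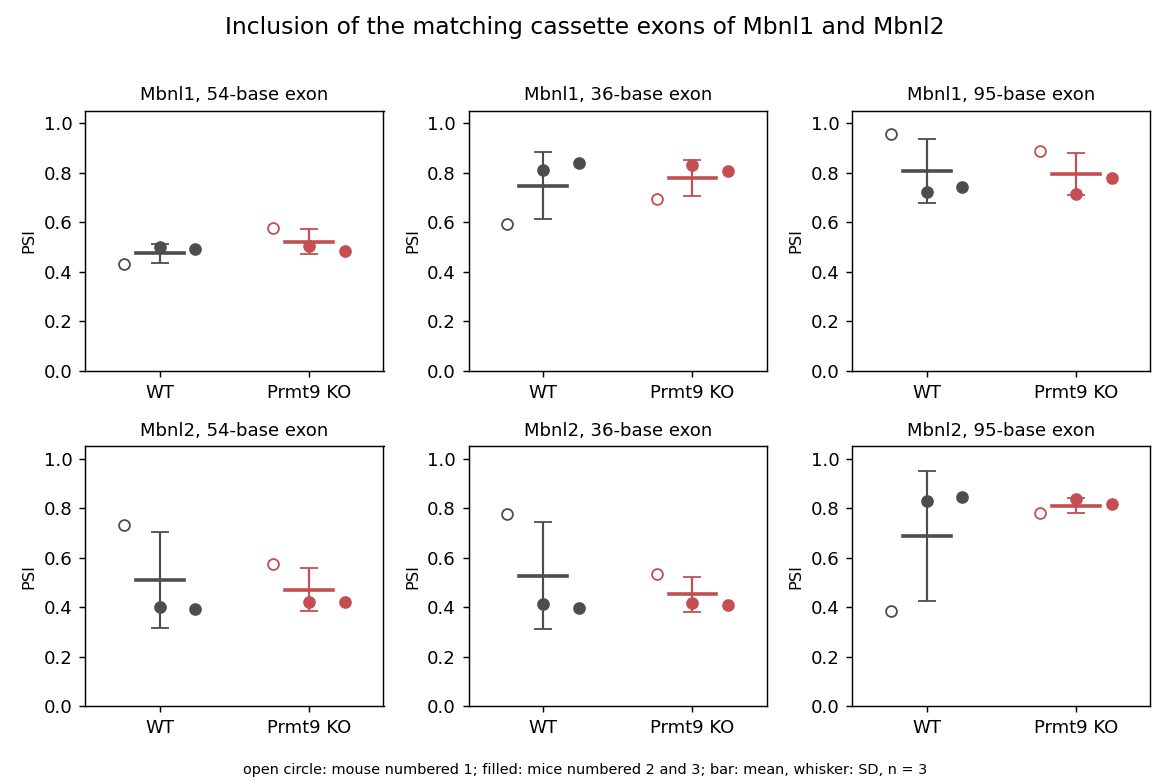
Inclusion (PSI as a fraction, vertical axes) of the 54-, 36- and 95-base exons of Mbnl1 (top) and Mbnl2 (bottom) in each mouse, with mean and SD of 3 mice. Open circles, the mice numbered 1, lie away from the filled circles in both genotypes, and the filled circles of WT and Prmt9 KO lie close together. For the 95-base exons only the transcripts of the events named in the text are covered.

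Mbnl3 was nearly all the single retained-intron transcript Mbnl3-206, which held 93.3%, 92.4% and 87.3% of its TPM in WT and 86.4%, 88.7% and 90.3% in knockout mice. Its 4 protein-coding transcripts together held 5.24% ± 1.99 (SD, n = 3) in WT and 5.94% ± 0.78 in knockout mice.

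Across the members with at least 1 TPM in every mouse, which leaves out Mbnl3, 46 transcripts had a mean share of at least 5% in a genotype. The groups separated in 5 of these 46 (10.9%), and over all genes they did so in 9.74% of such transcripts. The 5 were Mbnl1-215 and Mbnl2-210, given above, and Celf1-208, Celf3-214 and Celf3-215. Celf1-208 held 11.3%, 13.7% and 6.45% of Celf1 TPM in WT and 4.30%, 3.16% and 5.28% in knockout mice. Celf3-214 held 10.5%, 12.04% and 10.8% in WT and 6.28%, 10.1% and 9.72% in knockout mice. Celf3-215, the leading Celf3 transcript, held 22.6%, 26.2% and 25.6% in WT and 27.8%, 26.5% and 26.5% in knockout mice. With mice numbered 2 and 3 alone, 26 of 45 such transcripts separated (57.8%), against 42.6% over all genes.

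No member passed the test of transcript usage when all 6 mice were fitted. Over all genes 23 of 13561 (0.17%) had an adjusted p under 0.01 (edgeR, Simes method over a gene's transcripts), and the 9 members had unadjusted p of 0.786 to 0.997. With mice numbered 2 and 3 alone, 249 of 13667 genes (1.82%) were called, and among the 9 members Celf2 (adjusted p = 3.2e-10) and Celf1 (adjusted p = 2.3e-06) passed. Leaving out WT mouse 1 alone gave adjusted p of 2.6e-06 for Celf2 and 2.8e-10 for Celf1. With all 6 mice and a term for the mice numbered 1, the adjusted p were 0.019 and 0.16, and with the replicate block 0.37 and 1. Neither gene was called in any fit that kept WT mouse 1. Celf3 was next, at an adjusted p of 0.059, and Celf4, Celf5, Celf6, Mbnl1, Mbnl2 and Mbnl3 were at 0.996 or above with mice numbered 2 and 3.

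The transcripts behind the Celf1 and Celf2 calls were 4 protein-coding ones, among 307 of 70434 transcripts called with mice numbered 2 and 3 (0.436%). Celf2-202 held 17.1%, 0.64% and 0.78% of Celf2 TPM in WT mice 1, 2 and 3 and 12.9%, 2.35% and 2.86% in Prmt9 KO mice 1, 2 and 3. It was higher in knockout mice 2 and 3 than in WT mice 2 and 3, but both mice numbered 1 were several times above all of them. With the term for the mice numbered 1 it was also called (edgeR, adjusted p = 0.0055). Celf2-204, which includes the 144-base exon printed above, held 6.61%, 11.8% and 11.95% in WT and 6.17%, 8.26% and 7.67% in knockout mice. It was lower in knockout mice 2 and 3, while WT mouse 1 lay among the low values.

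Celf1-205 was listed at 1.2e-05 and 2.9e-05 TPM in WT mice 2 and 3. It held 13.2% of Celf1 TPM in WT mouse 1, and 7.93%, 2.12% and 2.90% in the knockout mice. The size of its fitted change therefore has no meaning as a fold. Celf1-205 also had the smallest p of the Celf1 transcripts with mice numbered 2 and 3 (edgeR, unadjusted p = 6.6e-10). The p of the Celf1 call in that fit rests on it. Celf1-208, given above, was lower in all 3 knockout mice than in any WT mouse (edgeR, adjusted p = 0.0055 with mice numbered 2 and 3 and 1 with all 6). None of the 4 transcripts holds a base that is in no other annotated transcript of its gene. Celf2-202 shares 7489 of its 7491 bases with Celf2-201, and Celf1-208 shares all 7579 of its bases with Celf1-207, so each share rests on how reads were divided between overlapping transcripts.

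**Figure D5:**
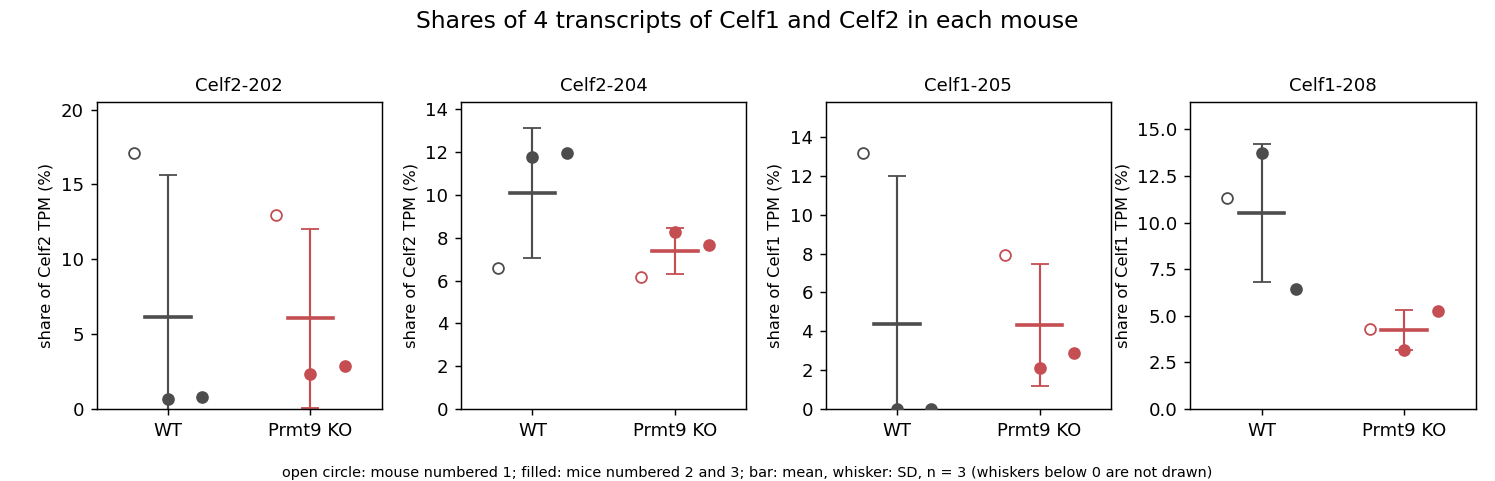
Share of gene TPM (vertical axes, percent) of Celf2-202, Celf2-204, Celf1-205 and Celf1-208 in each mouse, with mean and SD of 3 mice. Among the filled circles, mice numbered 2 and 3, the WT and Prmt9 KO values do not overlap in any panel, and with the open circles, mice numbered 1, they do in all but Celf1-208.

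Splicing events were tested in 8 of the 9 genes. Of 81 annotated events in the members 47 passed the limits on level and PSI, and Mbnl3 had 0 of them. They were 17 cassette exons, 15 alternative 3′ splice sites, 9 retained introns and 6 alternative 5′ splice sites. In 28 of the 47 the length was a multiple of 3, and 28 of the 47 held coding bases in an including transcript. Celf3 had 15 tested events, Celf4 8, Celf2 7, Celf1 6, Mbnl1 4, Celf6 and Mbnl2 3 each, and Celf5 1. Pieces of exactly 3 bases at alternative splice sites occurred in Celf1, Celf3, Celf4, Celf5 and Celf6.

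None of these events passed the test between genotypes. The test used TPM of annotated transcripts and cannot see junctions outside the annotation. At the same limits the study reported altered splicing events in many genes, from aligned reads and with unannotated splice sites included. The counts below are therefore not a measure of its events. Calls were made at adjusted p up to 0.01 where PSI also moved by 0.05 or more, and 0 of 24031 events were called (limma on the log2 ratio, 0% called, 770 at an unadjusted p under 0.05). Of the 47 member events, 0 had an unadjusted p under 0.05, and the smallest was 0.11. PSI differences, Prmt9 KO minus WT, ran from -0.081 to 0.18 with a median of 0.0015. In 3 of the 47 the groups separated (6.38%), against 10.7% of all tested events. All 3 were in Celf4. The 84-base exon piece at chr18:25491141-25491224 was included at 0.711, 0.712 and 0.716 in WT and 0.682, 0.697 and 0.694 in knockout mice. The 3-base piece at chr18:25496303-25496305 was at 0.161, 0.158 and 0.168 in WT and 0.173, 0.175 and 0.177 in knockout mice. The 3-base piece at chr18:25503078-25503080 was at 0.909, 0.854 and 0.850 in WT and 0.849, 0.841 and 0.844 in knockout mice.

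The 10 member events with the smallest unadjusted p, 0.11 to 0.28, were these. In Celf3 they were the exons at chr3:94484492-94484683 and chr3:94487135-94487388, the intron at chr3:94484403-94484816 and the 3′ splice site piece at chr3:94488139-94488526. None of the 4 holds coding bases in its including transcript, and each rests on 1 including and 1 excluding transcript. The first had the largest difference of the 47, with inclusion of 0.504, 0.948 and 0.952 in WT and 1, 0.944 and 1 in knockout mice, so that WT mouse 1 alone was low. The Celf2 intron at chr2:6546780-6547041 was retained at 0.861, 0.783 and 0.780 in WT and 0.873, 0.838 and 0.847 in knockout mice. In Celf1 they were the intron at chr2:91013403-91013490, with mean retention of 0.539 ± 0.013 (SD, n = 3) in WT and 0.579 ± 0.036 in knockout mice, and the 12-base piece printed above, at 0.916 ± 0.030 and 0.941 ± 0.0074. In Mbnl1 they were the exon at chr3:60596719-60596829, at 0.145 ± 0.027 in WT and 0.117 ± 0.0078 in knockout mice, and the 54-base exon. The last was the Celf4 piece at chr18:25503078-25503080.

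With mice numbered 2 and 3 alone, 8 of 45 tested member events (17.8%) had an unadjusted p under 0.05, against 9.97% of all events, and no adjusted p was under 0.45. The 8 were 2 in Celf1, 2 in Celf2 and 4 in Celf3. Events of a gene share transcripts, so the 8 are not separate observations. Both in Celf2 set Celf2-204 against other transcripts, and 1 of them is the intron at chr2:6546780-6547041 given above. The smallest unadjusted p was for a 1104-base piece at a 3′ splice site of Celf2, chr2:6545676-6546779. It was included at 0.204, 0.466 and 0.476 in WT and 0.217, 0.356 and 0.329 in knockout mice (limma, unadjusted p = 0.0025 with mice 2 and 3 and 0.42 with all 6). The 144-base exon of Celf2 was at 0.663, 0.711 and 0.721 in WT and 0.655, 0.684 and 0.672 in knockout mice, where WT mouse 1 lay below the other WT mice.

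Other genes of the pathway were read as lists. Of 18 other neuronal splicing regulators, such as the Rbfox, Nova and Ptbp genes, 0 were called with all 6 mice, 8 had positive and 10 negative log2 fold changes, and the median was -0.019. In the fit of mice numbered 2 and 3 alone, 6 of the 18 had an unadjusted p under 0.05, where 16.4% of all genes did, 0 were called and the median was -0.056. With all 6 mice, the smallest unadjusted p was that of Khdrbs1, which encodes the STAR-family protein Sam68, with a log2 fold change of -0.13 ± 0.096 (edgeR, adjusted p = 1). Of 15 genes with exons known as MBNL or CELF targets, 0 were called with all 6 mice, with a median of -0.013. Without the mice numbered 1, 6 of the 15 had an unadjusted p under 0.05, where 16.4% of all genes did. In that fit 0 of the 15 were called and the median was -0.058. When all 6 mice were fitted, 1.23% of all genes had an unadjusted p under 0.05. Camk2d, a calmodulin-dependent kinase subunit with MBNL-regulated exons, was the single gene of this list to do so. It was at 16.4, 28.3 and 26.0 TPM in WT and 36.3, 35.2 and 31.1 TPM in knockout mice, which did not overlap, and its log2 fold change was 0.39 ± 0.14 (edgeR, adjusted p = 1). Without the mice numbered 1 its log2 fold change was 0.24 (adjusted p = 0.24).

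By transcript usage, 0 of these 15 target genes were called with all 6 mice. With mice numbered 2 and 3, Grin1, which encodes the obligatory NMDA receptor subunit, was called (edgeR, adjusted p = 6.5e-09) and is named because its value was seen. In that fit 1.82% of all genes were called. Of 10 deadenylase genes, among them Parn, which CELF1 is known to recruit to mRNA, 0 were called and the median was -0.020. Parn had a log2 fold change of 0.17 ± 0.096 with all 6 mice. Without the mice numbered 1, 1 of the 10 had an unadjusted p under 0.05, where 16.4% of all genes did, 0 were called and the median was -0.023. Of 10 genes of the myotonic dystrophy loci and of kinases acting on CELF1, 0 were called with all 6 mice. All 10 log2 fold changes were negative, from -0.25 for Cdk4 to -0.0095. Their median was -0.060, against -0.011 over all genes tested. The share of negative values over all genes is not given, so this count is not a result about the list. Cdk4 was highest in the mice numbered 1, at 184 and 170 TPM against 97.4 to 109, and its log2 fold change was -0.039 without them. When the mice numbered 1 were left out, 3 of the 10 had an unadjusted p under 0.05, against 16.4% of all genes. In that fit 0 of the 10 were called and the median was -0.049. Dmpk, the gene of the repeat expansion in myotonic dystrophy type 1, was at 30.2, 69.9 and 68.4 TPM in WT and 32.4, 53.8 and 69.1 TPM in knockout mice. Here too both mice numbered 1 were the low ones.

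The genes whose level followed each member most closely over the 6 mice were found by the root mean square difference of log2 CPM, each gene centred on its own mean. They were Eea1 for Celf1, Zfp770 for Celf2, Glt1d1 for Celf3, Ltn1 for Celf4, Arf3 for Celf5, Zcchc18 for Celf6, N4bp2l2 for Mbnl1, Jdp2 for Mbnl2 and Idua for Mbnl3. The differences were 0.0078 for Arf3 to 0.033 for Idua, and the median over all genes was 0.27 to 0.39. Among the members themselves Celf4 and Celf5 were closest, at 0.034, followed by Celf1 and Mbnl1, at 0.036. These likenesses are descriptions over 6 mice that share the difference between the mice numbered 1 and the rest.

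Reads could in principle be shared between paralogs. Over the coding sequence of the leading protein-coding transcripts, pairs of CELF genes were identical at 60.1% to 75.2% of aligned bases and pairs of MBNL genes at 71.3% to 73.1%. The sole overlap of a member's exons with those of another gene was 74 bases shared by Celf3 with Riiad1 on the opposite strand, whose mean in WT mice was 10.9 TPM.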

How the data were processed

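Libraries were made with a stranded polyA kit and sequenced from 6 mice. Per the labels and the study's methods, the authors ran kallisto (0.46.0 in the submitters' processing notes, which also name STAR 2.7.1a) against mouse transcripts of GRCm38. They deposited estimated counts and TPM per transcript for each mouse and a gene table of TPM summed over transcripts. Whether kallisto used strand is not given in the sources used here. Of 118783 transcripts, 116710 matched GENCODE M21 by identifier, and 2073 were not used for want of a match.

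The estimated counts, as deposited, were summed per gene, rounded and tested in edgeR 4.0.16 (TMM, filterByExpr, quasi-likelihood F test, 20335 genes). Transcript usage was tested with diffSpliceDGE and the Simes method. PSI was computed from deposited TPM for 50484 annotated events (at least 1 TPM in every mouse, mean PSI of 0.05 to 0.95 in a genotype) and tested with limma 3.58.1 on log2 ratios with 0.1 TPM added. DESeq2 1.42.0 was an alternative. Benjamini-Hochberg adjustment ran over all features. The p-values for genes and events measure the spread between mice. The usage test pools that spread over the transcripts of a gene. It takes the estimated counts as given, so error in dividing reads between transcripts is left out. The scripts were tested on simulated data, where the usage test also made false calls.

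Same-numbered mice deviated together (correlations of deviations from group means of 0.52, 0.38 and 0.35 for numbers 1, 2 and 3). The numbers were used as a replicate block on that ground, and no label gives a pairing. Deviations from a group mean cancel out, so mice numbered 1 that both stand apart raise all 3 correlations. Mice of unlike number were not correlated, so the values do not show that the mice are paired. All 9 members were named. Their transcripts of at least a 5% mean share, the 10 events with the smallest p and at most 4 genes per list were also named, where not stated otherwise. Members and lists were chosen with earlier results of these data known. A further result on transcript usage in the list of target genes is not reported here.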

Additional observations from a re-analysis of the deposited data

How the results depend on the processing

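None of the 9 members was called differentially expressed under any alternative run. The count of called genes was 0 and became 2 with DESeq2, 1 with a term for the mice numbered 1 and 1 with numbers 2 and 3 only, and it stayed 0 under every leave-one-out fit and with the replicate block, which changed no call of a member. Genes with changed transcript usage numbered 23, and 13 with the replicate block, which treats same-numbered mice as pairs. They numbered 4 with limma, 1 with at least 10 counts in every mouse and 52 with the term for the mice numbered 1. With numbers 2 and 3 only they numbered 249, and 9 to 143 when 1 mouse was left out, the highest without WT mouse 1. Changed splicing events stayed at 0 throughout. Members whose TPM did not overlap numbered 0, 5 with numbers 2 and 3 only, and 0 to 4 with 1 mouse left out, the highest without WT mouse 1. Over all genes the share was 5.97% with all 6 mice and 51.2% with numbers 2 and 3 only. Member transcripts whose shares did not overlap numbered 5, 8 with a minimum share of 1%, 26 with numbers 2 and 3 only, and 6 to 21 with 1 mouse left out, the highest again without WT mouse 1. Over all genes 9.74% of such transcripts separated with all 6 mice and 42.6% with numbers 2 and 3 only. Groups of fewer mice separate more readily. No share over all genes is given for the fits with 1 mouse left out or the 1% minimum, so those counts are not results about the members.

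The sign of the members' small log2 fold changes was not stable. Leaving out 1 mouse gave -0.17 to 0.18 for Celf1, -0.026 to 0.14 for Celf2, -0.032 to 0.050 for Celf3, -0.13 to 0.098 for Celf4, -0.13 to 0.086 for Celf5, -0.20 to 0.14 for Celf6, -0.18 to 0.14 for Mbnl1 and -0.28 to 0.075 for Mbnl2. With numbers 2 and 3 only the sign turned for Celf1 (-0.028), Celf3 (-0.069), Celf4 (-0.050), Celf5 (-0.068) and Mbnl1 (-0.049), and the PSI difference of the 54-base Mbnl1 exon became -0.0023. RLE size factors and DESeq2 gave -0.0037 and -0.0042 for Celf5 and -0.0031 and -0.0035 for Mbnl1. Length-scaled counts gave -0.010 for Celf3 and -0.027 for Celf5. For Celf6 no filter gave 0.0014 and limma on log2(TPM + 1) gave 0.061. The cause was not tested.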
